A study of Homo sapiens with 6 samples.

Results

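A stretch of the short arm of chromosome 18 (18p11), from 3 to 5 Mb in the hg19 build, was examined for open chromatin together with the 5 protein-coding genes DLGAP1, TGIF1, MYL12A, MYL12B and MYOM1 that lie in it. The genes were chosen by the number of called peaks and the raised local background that these peak lists had already shown there, so peak counts and background values below describe the choice and carry no test. Peaks that overlapped a gene or the 10 kb to each side of it, and all other peaks of the stretch, were taken from the 6 deposited lists. They came to 1 of 168 peaks in HET-1A library 1, 144 of 15979 in HET-1A library 2, 3 of 1255 in KYSE-30 library 4, 13 of 11671 in KYSE-30 library 6, 0 of 547 in KYSE-150 library 7 and 0 of 259 in KYSE-150 library 8.

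The study profiled chromatin accessibility by ATAC-seq, in which the transposase Tn5 inserts sequencing adaptors into open DNA, in 3 human esophageal cell lines with 2 libraries each. HET-1A is a non-tumorigenic, immortalized esophageal epithelial line grown in BEBM medium with additives. KYSE-30 and KYSE-150 are esophageal squamous cell carcinoma (ESCC) lines grown in RPMI/F12 medium with 5% serum. All 3 lines were untreated and each condition is 1 established line. Between HET-1A and the carcinoma lines, line and medium cannot be told apart. No label gives whether the 2 libraries of a line came from separate cultures. The libraries of a line differed widely in list length, HET-1A library 1 holding 168 peaks and library 2 holding 15979, and they are reported one by one. With 2 libraries against 2, an exact two-sided permutation test cannot go below p = 0.3333, so no line was tested against another.

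The 5 genes have unrelated roles. DLGAP1 encodes a scaffold protein of the postsynaptic density that binds DLG and SHANK proteins. TGIF1 encodes a homeodomain repressor that limits transcription downstream of TGF-beta and retinoid signaling. MYL12A and MYL12B encode the regulatory light chains of non-muscle myosin II, which drives contraction of the cell cortex, and MYOM1 encodes myomesin, a protein of the sarcomeric M-band of striated muscle. Open chromatin at a gene commonly lies at its promoter or at distal enhancers, and in epithelial cells many enhancers carry the motif of AP-1, the dimer of JUN and FOS family factors.

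Sequences of the leading peak of each gene and of sites called in more than 1 library are given first, as 200 bases around the summit of a peak, read from the plus strand of hg19. The peaks of MYOM1, MYL12A and MYL12B and the first of DLGAP1 are the strongest HET-1A library 2 peaks of those genes by fold enrichment, that of TGIF1 is its peak with the most summit tags, the next 3 are the sites also called in KYSE-30 library 4, and the last is the peak of HET-1A library 1. Capitals mark the AP-1 core TGACTCA (or TGAGTCA), the ETS core CCGGAA and the GC box GGGCGG, on either strand.
MYOM1 intron, chr18:3104206-3104405: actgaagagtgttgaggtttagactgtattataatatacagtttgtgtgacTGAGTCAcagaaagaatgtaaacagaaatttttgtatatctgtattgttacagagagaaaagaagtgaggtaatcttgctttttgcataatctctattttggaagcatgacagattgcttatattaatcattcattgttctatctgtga
MYL12A start, chr18:3247318-3247517: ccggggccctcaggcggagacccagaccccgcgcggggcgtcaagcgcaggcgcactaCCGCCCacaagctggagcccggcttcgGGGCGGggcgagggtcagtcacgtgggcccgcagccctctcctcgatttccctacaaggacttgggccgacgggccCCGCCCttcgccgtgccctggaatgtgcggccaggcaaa
MYL12B start, chr18:3262019-3262218: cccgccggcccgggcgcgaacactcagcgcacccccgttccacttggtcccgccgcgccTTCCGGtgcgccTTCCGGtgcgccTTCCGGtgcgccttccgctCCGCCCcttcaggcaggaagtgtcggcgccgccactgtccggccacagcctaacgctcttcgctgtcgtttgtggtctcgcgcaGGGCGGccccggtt
TGIF1 second start, chr18:3448165-3448364: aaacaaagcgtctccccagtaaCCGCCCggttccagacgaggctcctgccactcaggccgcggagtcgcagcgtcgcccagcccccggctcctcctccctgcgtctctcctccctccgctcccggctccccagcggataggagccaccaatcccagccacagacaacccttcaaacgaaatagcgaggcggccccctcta
DLGAP1 intron, strongest site, chr18:3652875-3653074: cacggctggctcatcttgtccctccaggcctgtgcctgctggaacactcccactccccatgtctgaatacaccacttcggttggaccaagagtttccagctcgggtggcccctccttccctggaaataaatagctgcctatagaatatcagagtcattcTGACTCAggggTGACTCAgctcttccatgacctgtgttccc
Site between MYL12B and TGIF1, chr18:3297474-3297673: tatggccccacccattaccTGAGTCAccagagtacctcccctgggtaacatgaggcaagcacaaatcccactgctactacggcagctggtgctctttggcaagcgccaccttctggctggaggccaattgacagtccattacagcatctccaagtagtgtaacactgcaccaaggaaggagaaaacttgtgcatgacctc
DLGAP1 intron, second site, chr18:3512125-3512324: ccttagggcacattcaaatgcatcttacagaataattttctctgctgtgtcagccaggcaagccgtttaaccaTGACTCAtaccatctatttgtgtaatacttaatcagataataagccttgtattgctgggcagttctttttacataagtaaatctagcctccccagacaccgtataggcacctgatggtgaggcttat
DLGAP1 intron, site called in both KYSE-30 libraries, chr18:3624034-3624233: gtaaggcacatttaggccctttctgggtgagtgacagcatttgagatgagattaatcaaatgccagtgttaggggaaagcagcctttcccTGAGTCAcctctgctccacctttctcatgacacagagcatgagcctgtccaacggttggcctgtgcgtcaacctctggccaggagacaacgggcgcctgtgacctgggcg
DLGAP1 intron, HET-1A library 1, chr18:3563211-3563410: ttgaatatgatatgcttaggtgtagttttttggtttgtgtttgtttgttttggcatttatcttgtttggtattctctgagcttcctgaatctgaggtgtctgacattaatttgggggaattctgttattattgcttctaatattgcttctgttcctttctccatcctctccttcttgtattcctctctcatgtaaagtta
The promoters of both myosin light chain genes held GC boxes, 3 at MYL12A and 2 at MYL12B, and MYL12B also held 3 ETS cores. The second start of TGIF1 held 1 GC box. The strongest MYOM1 peak held 1 AP-1 core, and the strongest DLGAP1 peak held 2. The site between MYL12B and TGIF1 lies in an intron of the non-coding gene ENSG00000266578. Each of the 3 sites also called in KYSE-30 library 4 held 1 AP-1 core, and the peak of HET-1A library 1 held none of these letters. Among 200-base windows at the summits of all HET-1A library 2 peaks, 21.7% held an AP-1 core, 12.0% an ETS core and 29.2% a GC box.

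HET-1A library 2 was the library in which the stretch stood out. Its 144 peaks made up 0.901% of the list (95% Wilson interval 0.766 to 1.06), while the stretch is 0.0646% of the genome by length. For HET-1A library 1 the share was 0.595%, with an interval of 0.105 to 3.29. KYSE-30 library 4 gave 0.239% (0.0813 to 0.70), and for KYSE-30 library 6 it was 0.111% (0.0651 to 0.190). The share of HET-1A library 1 rests on 1 peak. The stretch was chosen from these same lists, so the shares describe single libraries and no line was compared by them. For KYSE-150, 0 of 547 peaks allows a share of up to 0.548% and 0 of 259 up to 1.16%, taken as 3 counts over the list length. The upper Wilson limits are 0.697% and 1.46%. A share equal to that of KYSE-30 library 6 could therefore go unseen in lists this short. These intervals and limits cover counting error alone. With every list cut to its 168 strongest peaks by p-value, 21 of HET-1A library 2 lay in the stretch, 1 of HET-1A library 1, 1 of KYSE-30 library 4 and 0 of the other 3 libraries. At the same fold enrichment, a site with more tags has a smaller p-value, so the raised background of the stretch enters this cut too.

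A peak list also holds the read density around each peak. The peak caller compared the tags stacked at a summit with a local background, the larger of a genome-wide mean and the mean over the surrounding 10 kb, and both numbers were recovered from the deposited fold enrichment and p-value. Relative background is used here for the local background divided by the genome background of the same library, so that a value of 1 is the genome level. In HET-1A library 2 it had a median of 13.6 over the stretch (range 2.75 to 25.5) against 1.45 over all peaks of the library, of which 6.31% reached 4. The median summit held 98.5 tags in the stretch and 25 over all peaks, yet median fold enrichment was 2.32 in the stretch (range 1.55 to 6.19) and 4.22 over all peaks. More DNA copies and more open chromatin over a wide stretch both raise this background and cannot be told apart in peak lists. Copy number was not analysed here.

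The single peak of HET-1A library 1 gives a second reading of that background in the same line. It lay in a DLGAP1 intron at chr18:3563126-3563381, with 87 summit tags over a local background of 32.2 and a fold enrichment of 2.65 (95% exact Poisson interval of the tags 2.13 to 3.26, q = 2.78e-11). Its relative background was 17.1, and the HET-1A library 2 peak 54 bp away, at chr18:3562866-3563072, had 17.9 and a fold enrichment of 1.76. Both HET-1A libraries thus had more than 10 times their genome background at that position, although the 2 peaks did not overlap. At the local background of library 1, 60 tags, or a fold enrichment of 1.84, reach the weakest p-value in its list, and 47 of the 73 library 2 peaks in the interval of highest background, from 3293671 to 3727056, were at or above that enrichment.

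In KYSE-30 the background of the stretch was lower. Library 6 had a median relative background of 3.20 (range 1.33 to 5.35) against 1.44 over all its peaks. Library 4 had values of 1.90, 1.94 and 3.13 at its 3 peaks against a median of 1.42 over all its peaks. The highest of these 16 KYSE-30 values, 5.35 at the second start of TGIF1, was under the HET-1A library 2 value at that site, 24.5.

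**Figure D1:**
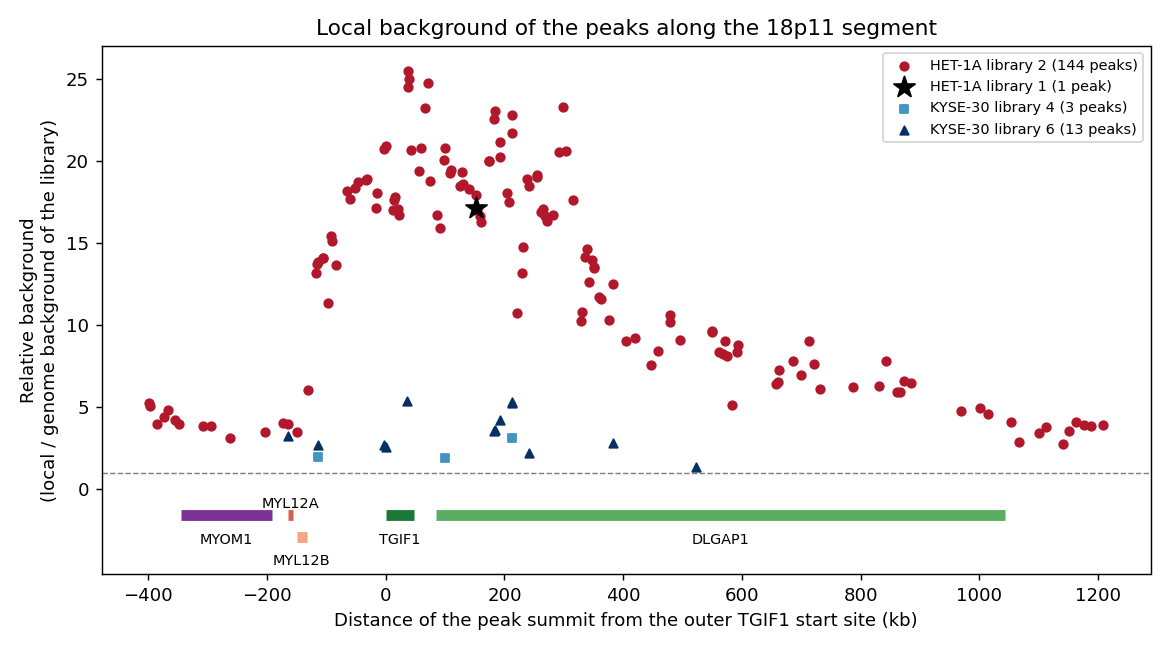
Relative background (local over genome background, no unit) of each peak against the distance of its summit from the outer TGIF1 start site in kb, one symbol per library, with the 5 genes drawn as bars below and a dashed line at 1. HET-1A library 2 reached 25.5 at TGIF1 and fell to under 5 toward the far end of DLGAP1, the HET-1A library 1 peak sat among its neighbours at 17.1, and KYSE-30 peaks stayed at or below 5.35.

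The background was not even along the stretch. In HET-1A library 2, the first 15 peaks, from 3013176 to 3280737 over MYOM1, MYL12A and MYL12B, had a median relative background of 3.97 (3.1 to 6.01). It then went from 6.01 at chr18:3280477-3280737 to 13.1 at chr18:3293671-3293888, a 2.19-fold step across 12933 bp without a peak. From 3293671 to 3727056, over TGIF1 and the 3' part of DLGAP1, 73 peaks had a median of 18.3 (10.7 to 25.5). This highest interval, like the others, was delimited after its values were seen.

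Beyond it the values fell in steps inside DLGAP1. Across 12902 bp without a peak after chr18:3726816-3727056 the relative background went from 17.6 to 10.2. The 28 peaks from 3739959 to 4004709 had a median of 9.90, the 18 from 4068704 to 4425584 a median of 6.42, and the last 10 a median of 3.80. Peak density went the same way, with 5.17 peaks per 100 kb in the first interval, 16.6 in the highest, then 10, 4.19 and 1.79. The last peak of the stretch, at chr18:4619135-4619670, still had 3.91, and the next peak on the chromosome, 676445 bp further on at the promoter of ZBTB14, a zinc finger repressor, had 1.00.

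On the other side the stretch had no sharp limit. The first peak inside it, at the promoter of LPIN2, a phosphatidate phosphatase gene, had a relative background of 5.22 and a fold enrichment of 4.83. The last peak outside had 5.13, and the peak next to the start of EMILIN2, an extracellular matrix glycoprotein gene, had 8.38 with a fold enrichment of 2.21. Among windows of 1 Mb in HET-1A library 2, the one from 3 to 4 Mb, which holds 4 of the 5 genes whole and the 3' part of DLGAP1, had 114 peaks, the most of 2093 windows with a peak. Its median relative background of 16.6 ranked 4 of the 1492 windows with at least 3 peaks. The same window of KYSE-30 library 6 held 13 peaks with a median of 3.20 and ranked 18 of 1676.

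A peak in the gene or its 10-kb flanks was found for 5 of the 5 genes in HET-1A library 2, where 51.1% of 20175 protein-coding genes had one. In KYSE-30 library 6, 3 of the 5 had a peak, against 41.6% of all genes. In KYSE-30 library 4 it was 1 of 5 against 6.52%, and in HET-1A library 1 it was 1 of 5 against 0.471%. None of the 5 had a peak in KYSE-150 library 7, where 2.89% of genes did, or in KYSE-150 library 8, where 0.897% did. Of the 144 peaks of HET-1A library 2, 110 belonged to the 5 genes, 1 of them to both MYL12A and MYL12B, and 34 lay elsewhere in the stretch.

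DLGAP1 (ENSG00000170579, minus strand, chr18:3496030-4455307) spans 959 kb and held 88 of the HET-1A library 2 peaks, 86 of them touching the gene body. That was the highest number of any protein-coding gene in the library. Among the 324 protein-coding genes of at least 500 kb the median was 1 peak and the next highest count was 71, for SHANK2, another postsynaptic scaffold gene. The relative background of the DLGAP1 peaks ran from 4.06 to 23.3 with a median of 13.3, and fold enrichment ran from 1.60 to 6.19 with a median of 2.21. DLGAP1 held 8 peaks in KYSE-30 library 6, with fold enrichment between 4.36 and 7.75, and 2 in KYSE-30 library 4, with 2.86 and 4.0.

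No peak was called within 3 kb of the outermost DLGAP1 start at 4455307 in any library. The nearest HET-1A library 2 peak lay 9533 bp from it, with a fold enrichment of 2.54. Only 4 of the 88 peaks lay within 3 kb of any annotated DLGAP1 start, all at internal starts. At the one with the highest enrichment, near 3814063, it was 3.47. The strongest DLGAP1 peak, chr18:3652374-3653177, instead covered the start of ENSG00000266401, a long non-coding RNA (lncRNA) inside a DLGAP1 intron, with 387 summit tags, a fold enrichment of 6.19 and q = 3.17e-165. In KYSE-30 library 6 the same site had 32 tags and a fold enrichment of 7.75, the highest of that library in the stretch.

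TGIF1 (ENSG00000177426, plus strand, chr18:3411606-3459976) had the highest background of the 5 genes. Its 12 HET-1A library 2 peaks had a median relative background of 20 (16.7 to 25.5) and a density of 17.6 per 100 kb, above the 8.99 per 100 kb of DLGAP1. Their fold enrichment was low, with a median of 2.1 (1.70 to 4.37). The 3 highest values were 4.37 upstream of the gene, 4.02 at its second start at chr18:3447984-3448463 and 3.26 at its outer start at chr18:3412506-3412911. Those are also the 3 TGIF1 sites called in KYSE-30 library 6, where fold enrichment was 4.78, 4.02 and 3.96 in the same order. TGIF1 had no peak in the other 4 libraries.

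MYL12A (ENSG00000101608, plus strand, chr18:3247479-3256234) had 3 peaks in HET-1A library 2. The peak over its start had a fold enrichment of 5.08 and a relative background of 3.94 there, and 5.21 and 3.20 in KYSE-30 library 6, the closest background of any gene start called in both lines. MYL12B (ENSG00000118680, plus strand, chr18:3261477-3278459) had 2 peaks, one beside its start with a fold enrichment of 4.29 and a relative background of 3.46, and one beyond its 3' end with 2.42 and 6.01. The start of MYL12B was called in no other library. Both light chain genes lay before the step in background, and both start peaks held GC-rich sequence with GC boxes.

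MYOM1 (ENSG00000101605, minus strand, chr18:3066805-3219966), the muscle gene of the group, had 6 peaks in HET-1A library 2 and none in any other library. None lay within 3 kb of an annotated MYOM1 start, and the nearest to the outer start was 12055 bp away. Their fold enrichment had a median of 3.69 (2.31 to 5.95), the highest being the intronic AP-1 site shown above, and their relative background had a median of 3.83 (3.1 to 4.22).

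**Figure D2:**
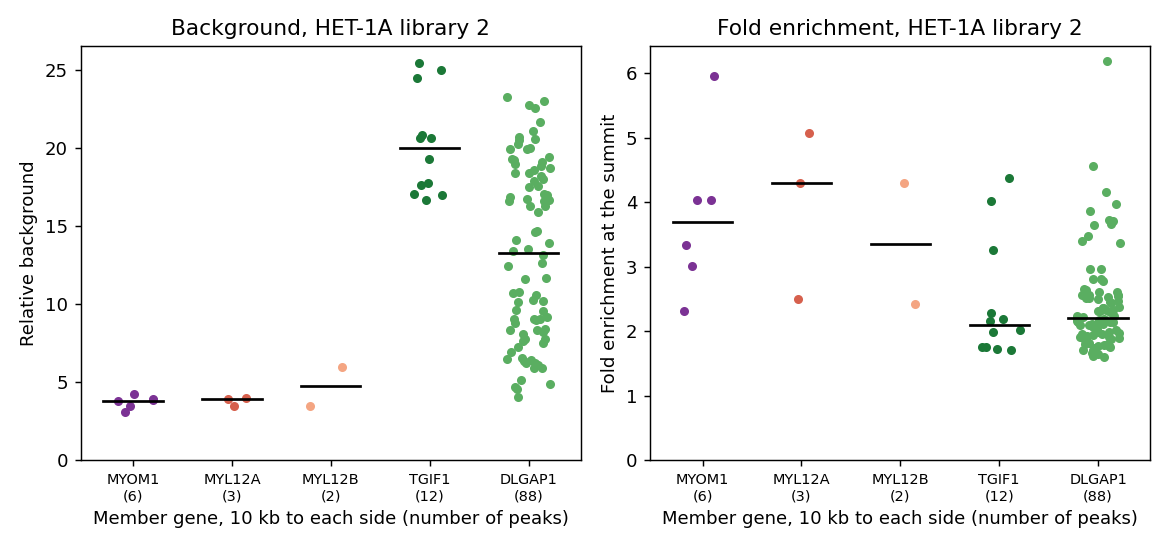
Relative background (left) and fold enrichment at the summit (right) of each HET-1A library 2 peak by gene, with 10 kb to each side, bars at the medians and the number of peaks in brackets. The median background of TGIF1 (20) and DLGAP1 (13.3) was above that of MYOM1 (3.83), MYL12A (3.94) and MYL12B (4.74), while their median fold enrichment, 2.1 and 2.21, was below 3.69, 4.29 and 3.35.

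The raised background changes which peaks can be called. A site with more tags needs a smaller enrichment to pass the same q-value threshold. Among the 4144 HET-1A library 2 peaks with a relative background under 1.1, the lowest fold enrichment was 2.81, and 107 of the 144 peaks of the stretch (74.3%) were below it. The other 37 were at or above it. Over the 144 peaks, fold enrichment and relative background had a Spearman rho of -0.336. It is a description over peaks of 1 library that share their depth, and the threshold itself ties both measures together.

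**Figure D3:**
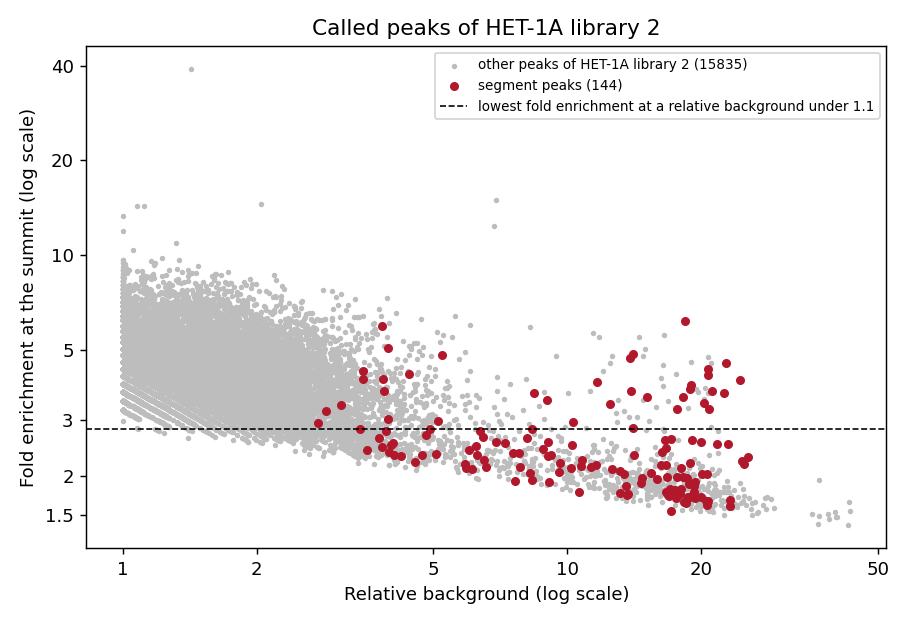
Fold enrichment at the summit against relative background, both on log scales, for the 144 peaks of the stretch (red) and the other peaks (grey) of HET-1A library 2, with a dashed line at 2.81, the lowest enrichment called at a relative background under 1.1. The lowest enrichment called falls as background rises, and 107 red points lie under the line.

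The sites called in both HET-1A and KYSE-30 allow the same element to be read in both lines. Of the 13 KYSE-30 library 6 peaks, 12 overlapped a HET-1A library 2 peak, where 39.1% of all 11671 peaks of that library did. All 3 KYSE-30 library 4 peaks overlapped one, against 49.6% of its 1255. In the other direction 13 of the 144 HET-1A library 2 peaks (9.03%) overlapped a peak of either KYSE-30 library, against 29.4% of all 15979. The dense HET-1A library 2 peaks of the stretch, for which it was chosen, enter all of these shares. Summits of the 12 pairs lay a median of 29 bp apart and at most 99 bp. The remaining KYSE-30 library 6 peak, chr18:3934585-3934784, had a fold enrichment of 4.36 and lay 26009 bp from the nearest HET-1A library 2 peak.

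The pairs were closer over the local background than over the genome background. The HET-1A library 2 fold enrichment divided by that of KYSE-30 library 6 ranged from 0.528 to 1.00 with a median of 0.794. It was lower in HET-1A in 11 of the 12. These sites had to pass the call of KYSE-30 library 6, whose lowest fold enrichment in the stretch was 3.96, while HET-1A library 2 was called there down to 1.55, so the choice of sites favours this direction. Outside the stretch, 4552 sites chosen the same way had a median ratio of 0.838, and the HET-1A value was the lower one in 72.8%. The direction depended on the KYSE-30 library. At the KYSE-30 library 4 sites of the stretch the fold enrichment ratio was 0.977, 1.04 and 1.60. Over 619 library 4 sites outside the stretch its median was 1.16, with the HET-1A value lower in 30.0%. Summit tags divided by each library's genome background were higher in HET-1A library 2 than in KYSE-30 library 6 at all 12 sites. The ratio was 1.09 to 5.92 with a median of 3.50. Over the 4552 sites outside the stretch the same ratio had a median of 0.632 (quartiles 0.445 and 0.858).

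The lowest ratio, 1.09, was at the MYL12A start, where summit tags were 21.2 times the genome background in HET-1A library 2 and 19.5 times in KYSE-30 library 6. At the second start of TGIF1 they were 99.3 and 23.5 times, from 332 and 35 tags, with a fold enrichment of 4.02 in both lines. At the start of ENSG00000266401 they were 116 and 21.5 times, with fold enrichment of 6.19 and 7.75. The gap between lines in summit height was therefore small at MYL12A, before the step in background, and 1.99 to 5.92 times at the other 11 sites, all beyond it.

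The largest deficits in fold enrichment against KYSE-30 library 6 were at sites in DLGAP1. A second peak at DLGAP1-AS1, chr18:3595452-3595966, had 2.51 in HET-1A library 2 and 4.76 in KYSE-30 library 6, and an intronic site at chr18:3794526-3795099 had 3.37 and 6.37. At another, chr18:3624874-3625411, the values were 2.51 and 4.44. At chr18:3623477-3624573 they were 4.56 and 6.84, but KYSE-30 library 4 had 2.86 there, below the HET-1A library 2 value. These sites were picked for the size of the difference, and each value comes from 1 library, so no difference between lines was tested.

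**Figure D4:**
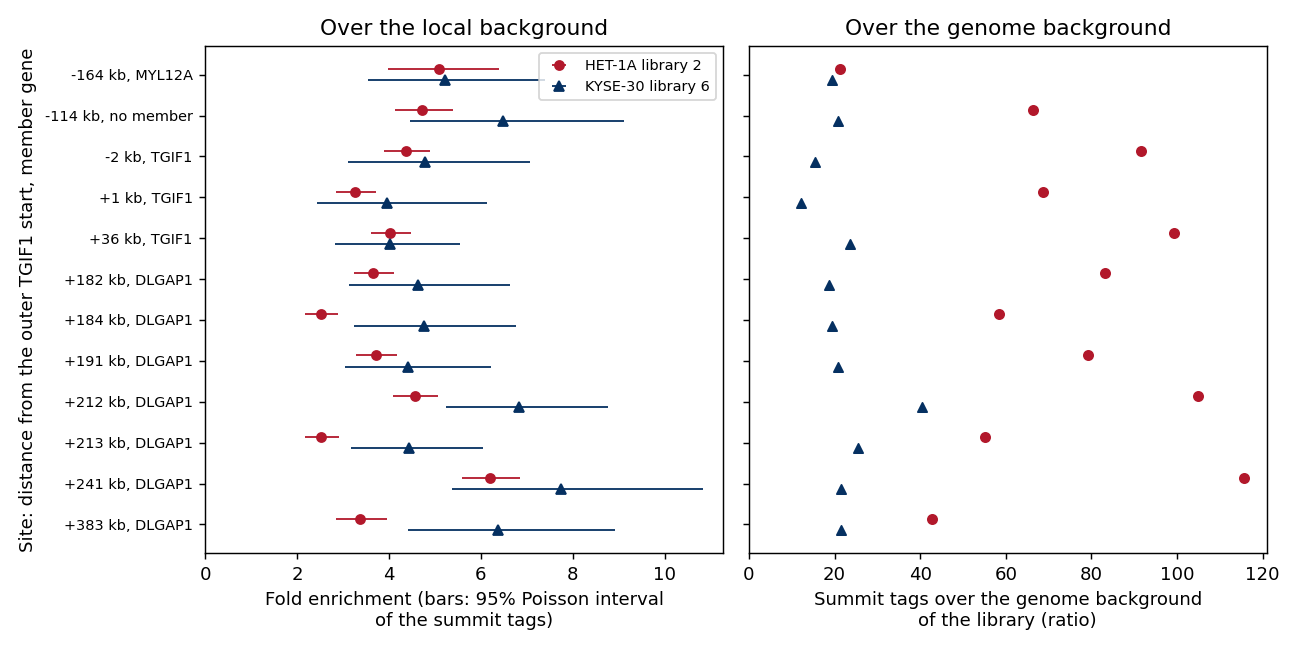
The 12 sites called in both HET-1A library 2 (red circles) and KYSE-30 library 6 (blue triangles), ordered by distance from the outer TGIF1 start, with fold enrichment over the local background and its 95% Poisson interval on the left and summit tags over the genome background on the right. The fold enrichment of HET-1A library 2 was a median of 0.794 of the other, whereas its summit height over the genome background was a median of 3.50 times the other and 1.09 times at MYL12A. The bars cover counting error of the tags, with the local background taken as fixed.

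Sites seen in both lines were the stronger ones of HET-1A library 2. The 13 peaks also called in either KYSE-30 library had a median fold enrichment of 4.02, and the other 131 had 2.22. An AP-1 core lay in 10 of the 13 (76.9%) and in 27 of the 131 (20.6%). The same split was not counted over the rest of the genome, so it cannot be called particular to the stretch. The former were wider, with medians of 538 and 335 bp, and within 200 bases at the summit the counts were 9 (69.2%) and 25 (19.1%). In all, 37 of the 144 peaks held the core, 25.7% (95% Wilson interval 19.3 to 33.4), close to the 24.7% of all HET-1A library 2 peaks. Peaks with the core had a median fold enrichment of 2.96 and those without it 2.16.

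The core was found in 19 of the 37 peaks at or above a fold enrichment of 2.81 (51.4%) and in 18 of the 107 below it (16.8%). Away from promoters it was found in 23.5% of peaks of the stretch and in 36.0% of all such peaks of the library. In KYSE-30 library 6 it lay in 9 of 13 peaks (69.2%, 42.4 to 87.3) against 29.7% of all peaks, and in KYSE-30 library 4 in 3 of 3 against 12.9%. By gene, HET-1A library 2 peaks with the core numbered 3 of 6 at MYOM1, 3 of 12 at TGIF1, 22 of 88 at DLGAP1 and none of the 3 at MYL12A or the 2 at MYL12B. A match to these letters is not evidence of binding.

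Most peaks of the stretch lay inside genes and away from starts. In HET-1A library 2, 80 of 144 were intronic (55.6%), 42 lay within 3 kb of an annotated start (29.2%, against 53.1% of all peaks), 15 were intergenic and 7 exonic. Median GC content was 45.4%, against 55.1% over all peaks. In KYSE-30 library 6, 8 of 13 lay within 3 kb of a start. Beside the 5 protein-coding genes, 31 other annotated genes start in the stretch, and 21 of them had a HET-1A library 2 peak within 3 kb of a start and 6 a KYSE-30 library 6 peak. Of all 64476 annotated genes, 17.2% and 13.7% had one by the same rule.

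Of the 13 lncRNA genes among these, HET-1A library 2 had such a peak at 10 and KYSE-30 library 6 at 4, against 14.1% and 11.7% of all lncRNA genes. Some of these starts share a peak. DLGAP1-AS1, antisense to DLGAP1, had a highest fold enrichment of 3.65 at a relative background of 22.6 in HET-1A library 2, and 4.63 at the same site in KYSE-30 library 6. DLGAP1-AS2 had 3.71 and 4.42 in the same order. DLGAP1-AS3 had 2.11 and DLGAP1-AS4 2.97 in HET-1A library 2 alone. LINC01895 had 3.77, ENSG00000266513 had 3.97 and GAPLINC, between TGIF1 and DLGAP1, had 1.70. ATAC-seq has no strand, so a peak at an antisense start inside DLGAP1 cannot be assigned to one gene or the other.

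Partners of the 5 genes elsewhere in the genome were counted from lists given by function. For TGF-beta signaling and TGIF1 partners, HET-1A library 2 gave a peak at 14 of 20 genes and KYSE-30 library 6 at 9 of 20. For non-muscle myosin II and its regulators, the partners of the light chains, the counts were 11 and 9 of 18. The DLGAP family and postsynaptic scaffold had 14 and 11 of 17, and the M-band partners of MYOM1 had 7 and 3 of 10. The shares of all genes, 51.1% and 41.6%, are given above, and no list was tested against them.

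The raised background was not seen at the relatives of DLGAP1. The HET-1A library 2 peaks of DLGAP2, DLGAP3, DLGAP4 and DLGAP5 had relative backgrounds between 1.29 and 2.7, whereas SHANK2 had 15.7 to 29.2. The relative TGIF2 had 2.75 to 3.0, and MYH9, the heavy chain of non-muscle myosin, had 1.03 to 1.67.

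Markers were read to check the epithelial label. In HET-1A library 2, where 51.1% of protein-coding genes had a peak, 9 of 12 epithelial marker genes had a peak, among them CDH1, EPCAM and TP63, but the basal keratin genes KRT5 and KRT14 had none. In KYSE-30 library 6, with a peak at 41.6% of genes, the count was 4 of 12, below that share. Fibroblast markers had a peak in 2 of 8 in both libraries, leukocyte markers in 3 of 6 in both, about the share of all genes, and endothelial markers in 1 of 3 and 0 of 3. In the other 4 libraries at most 1 gene of any of these lists had one, so that the label could not be checked there. Peaks at these few genes do not settle the label in the longer lists either. The part of other cells in the values above was not tested.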

How the data were processed

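ATAC-seq libraries of 3 cell lines (2 each) were analysed from peak lists that the authors called per library. According to the study's methods, trimmed reads were mapped to hg19 with Bowtie2 (2.3.3.1 in the submitters' processing notes), duplicates were marked, blacklisted regions removed and Tn5 positions shifted. Fragments under 100 bp were kept, and MACS2 (2.1.0.20160309) was run without a control at q = 0.05, with tags extended to 200 bp. Without a control, copy number and wide accessibility both enter the background.

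The deposited files hold a display score, the summit fold enrichment (a ratio), and the -log10 p-value and -log10 q-value of each peak. The deposited score was not used as a measurement. No read depth is given in the lists. Fold enrichment is (tags + 1) / (local background + 1), and the p-value is a Poisson tail, so tags and local background were solved from both to a tolerance of 0.001 (100% of peaks recovered, except 1 peak in each KYSE-150 library). On simulated data, 100% of 300 peaks were recovered for each library. The genome background was the smallest local background of a library, 1.49 to 3.34 tags. It rises with depth, but the length of the lists did not follow it. KYSE-30 library 6 had a genome background of 1.49 and 11671 peaks, whereas KYSE-150 library 7 had 2.80 and 547 peaks.

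Chromosome names and lengths matched the GRCh37 reference, and genes were taken from GENCODE 44 lifted to GRCh37. A peak within 3 kb of an annotated start was called promoter. Regions shared at least 1 bp to count as overlapping. Motifs were exact matches on both strands: TGACTCA or TGAGTCA (AP-1), CCGGAA (ETS), GGGCGG (GC box) and GGAATG (TEAD). None of these searched words contains another, but neighbouring matches can share bases. The names given are those of the 5 genes, other genes of the stretch with a peak within 3 kb of a start, the first gene beyond each end with one, and members of lists with few genes. The second TGIF1 start, SHANK2 and the DLGAP, TGIF2 and MYH9 values were picked after values were seen. The 5 genes, the lists and the intervals were chosen with earlier results of these data known. One endothelial marker (PECAM1) had no match in the annotation. The number of unused sample columns was 0. Python 3.11.15, numpy 2.4.6, pandas 2.3.3, scipy 1.17.1 and pysam 0.24.0 were used. Shares over all peaks and all annotated genes were computed by the rules used for the stretch. Alternatives covered the q-value threshold, equal list lengths, gene flanks, the background reference, overlap, leaving out each library, and the motif window. The sequence of 1 TGIF1 peak is not reported here.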

Additional observations from a re-analysis of the deposited data

How the results depend on the processing

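Among the values recomputed under alternatives, 95 stayed within the limits set for a change and 18 moved, and the cause of a move was not tested. The 95 include the KYSE-150 counts, which were 0 under every setting and say little about stability. With 168 peaks kept in every library, those of smallest p-value, HET-1A library 2 had 21 peaks in the stretch, KYSE-30 library 4 had 1 and KYSE-30 library 6 had 0. Ranking by p-value favours sites of raised background. Keeping peaks with a fold enrichment of at least 2.81, a choice added after the data were seen, left 37 peaks for HET-1A library 2 and 0 for the other HET-1A library. Counting genes by a peak within 3 kb of a start gave 0 for HET-1A library 1 and 0 for KYSE-30 library 4. With flanks of 50 kb, the counts were 3 genes for KYSE-30 library 4 and 5 for library 6. Taking the median over autosomal peaks as the genome background lowered the median relative background to 13.4 for HET-1A library 1, to 9.30 for library 2 and to 2.2 for KYSE-30 library 6. It also went from 1.94 to 1.36 for KYSE-30 library 4, which was within the limits. No region was called in both libraries of 1 line and in no other line. For HET-1A this rule needs a peak of library 1, whose list holds 168. Counting a call in either library gave 132 such regions for HET-1A and 1 for KYSE-30. The 132 rest mainly on HET-1A library 2, for whose dense peaks the stretch was chosen. Shares over the whole genome by these rules were not computed. Leaving out each library in turn gave 0 to 131 for HET-1A and 0 to 2 for KYSE-30, with 131 reached without HET-1A library 1, 2 without HET-1A library 2 and 1 without KYSE-30 library 4. No paired analysis was possible because the libraries of the 3 lines share no replicate number and the values come from no test.

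Peak lists limit what can be seen. A site without a peak is not a closed site, least of all in the 4 libraries with 168, 259, 547 and 1255 peaks. The profile rests on HET-1A library 2, and 1 peak of HET-1A library 1 gives the sole second reading in that line.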

Other observations

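Other motifs were counted in the HET-1A library 2 peaks of the stretch. GC boxes, the letters read by SP and KLF factors, lay in 13 of 144 peaks (9.03%) against 34.7% of all peaks of the library, and ETS cores in 9 (6.25%) against 16.4%. Away from promoters the shares were 4.90% against 10.1% for GC boxes and 1.96% against 5.73% for ETS cores. The core GGAATG, read by TEAD factors, lay in 38 peaks (26.4%) against 17.7%, while within 200 bases at the summit it lay in 18.8% against 12.8%. Away from promoters the TEAD shares were closer, with 25.5% against 21.2% over the whole peak and 17.6% against 16.1% at the summit. Peaks of the stretch were wider, with a median of 368 bp against 271 bp, and the part of width in these shares was not tested beyond the 200-base window.

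Inside the interval of highest background and beyond it, a few HET-1A library 2 peaks stood lower than their neighbours. Between chr18:3624874-3625411 and chr18:3633200-3633548, in DLGAP1, relative background went from 21.7 to 10.7 across 7788 bp. Further along the gene, chr18:3994073-3994443 had 5.13 between neighbours at 8.10 and 8.34.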
